A study of Mus musculus with 8 samples.

Results

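The Ms4a genes examined here are Ms4a4a, Ms4a4c, Ms4a6b, Ms4a6c, Ms4a6d and Ms4a7, which lie in the Ms4a family cluster on mouse chromosome 19, with other genes such as Ms4a4b and Ms4a4d between them. They were taken as every region of the deposited table whose nearest gene carries one of these symbols, which gave 21 of 129304 regions. Ms4a7 had 7 of them, Ms4a6d 4, Ms4a4a 3, Ms4a6b 3, Ms4a4c 2 and Ms4a6c 2. Every region was 800 bp wide, and none of these regions overlapped another. Coordinates are mm10, the build named in the submitters' processing notes.

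The study measured acetylation of histone H3 at lysine 27 (H3K27ac) by chromatin immunoprecipitation and sequencing in brain nuclei of C57BL/6 mice aged 2 years. The groups were wild-type (WT) mice and GrnKO mice, which lack Grn, the gene of the lysosomal and secreted protein progranulin. How the Grn allele was made is not given in the labels used here. Frozen half-brains gave fixed nuclei that were sorted as DAPI-positive, PU.1-positive, OLIG2-negative and NEUN-negative. This gate keeps PU.1-positive nuclei, among them those of microglia and of other brain macrophages. Each replicate pooled the nuclei of 2 mice, and each genotype had 2 replicates, so p-values measure the spread between pools. Each pool also gave an input library, chromatin sequenced without immunoprecipitation.

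H3K27ac marks nucleosomes at promoters and enhancers in use, and its level at a gene generally goes with transcription. Ms4a genes encode small proteins that cross the membrane several times and are found mostly in blood cells and tissue macrophages. The human MS4A4A and MS4A6A genes lie at a locus associated with Alzheimer's disease and with soluble TREM2 levels, and Ms4a7 is widely used in mice to mark macrophages at the borders of the brain and macrophages that enter it.

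RefSeq promoter windows (GRCm38.p6) were matched for 5 of the 6 genes, all but Ms4a6d, and each window lay inside the region of the table at that gene's start. The 250 bases before the start are printed for 4 genes, because the first pair gained H3K27ac in GrnKO and the second pair did not pass the test. They are written in lower case, 5′ to 3′ on the strand of the gene, for Ms4a7 (chr19:11336147-11336396, minus strand), Ms4a4a (chr19:11375238-11375487, plus strand), Ms4a6c (chr19:11469118-11469367, plus strand) and Ms4a6b (chr19:11518309-11518558, plus strand). Capitals mark the letters TGCTGA, on either strand, in Ms4a4a, and the longest run of bases common to Ms4a6c and Ms4a6b in those genes.
Ms4a7: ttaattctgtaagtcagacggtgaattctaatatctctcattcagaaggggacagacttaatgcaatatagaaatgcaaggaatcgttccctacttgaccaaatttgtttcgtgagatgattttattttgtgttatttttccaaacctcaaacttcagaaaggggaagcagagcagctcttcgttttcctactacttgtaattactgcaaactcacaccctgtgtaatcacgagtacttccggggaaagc
Ms4a4a: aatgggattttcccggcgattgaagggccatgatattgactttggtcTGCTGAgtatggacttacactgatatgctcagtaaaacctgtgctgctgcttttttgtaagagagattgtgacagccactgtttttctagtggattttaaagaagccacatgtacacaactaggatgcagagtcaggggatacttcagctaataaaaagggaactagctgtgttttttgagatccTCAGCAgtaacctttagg
Ms4a6c: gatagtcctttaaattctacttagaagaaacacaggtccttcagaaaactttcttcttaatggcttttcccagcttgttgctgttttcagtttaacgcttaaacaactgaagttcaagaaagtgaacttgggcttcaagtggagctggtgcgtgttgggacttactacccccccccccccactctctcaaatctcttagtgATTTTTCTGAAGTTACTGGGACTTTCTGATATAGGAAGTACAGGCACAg
Ms4a6b: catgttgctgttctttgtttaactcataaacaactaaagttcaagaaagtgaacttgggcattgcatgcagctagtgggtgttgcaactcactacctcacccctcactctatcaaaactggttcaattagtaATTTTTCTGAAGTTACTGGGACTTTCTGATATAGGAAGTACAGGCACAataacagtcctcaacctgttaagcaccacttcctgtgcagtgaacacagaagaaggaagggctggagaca

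The capitals in Ms4a6c and Ms4a6b are a shared run of 48 bases, which begins 49 bases before the start of Ms4a6c and 118 bases before that of Ms4a6b. The longest run shared by any other pair of the 5 upstream sequences had 7 to 9 bases. The Ms4a4 and Ms4a6 genes are close paralogs, and how reads that match several copies were treated is not given in the sources used here, so a split of reads between copies cannot be checked and values of these genes carry that uncertainty. The last bases printed for Ms4a6c lie inside the RefSeq gene, which begins at 11469353.

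The windows of 300 bases (250 before to 50 after the start) were poor in G and C. Their GC content was 39.7% in Ms4a7, 40.0% in Ms4a4c, 41.3% in Ms4a4a, 43.0% in Ms4a6b and 45.0% in Ms4a6c, against a median of 52.7% over 32851 windows of 27025 genes. They held 6 CpG pairs in Ms4a7, 4 in Ms4a6c, 3 in Ms4a4a and 0 in both Ms4a4c and Ms4a6b, against a median of 7. In a search of 8 motifs on both strands, AGGAAG, the core bound by ETS factors such as PU.1, was in Ms4a6b at 86, 42 and 17 bases before the start and in Ms4a6c at 17 bases before it, and 35.4% of all windows held it. TGCTGA, part of the sequence bound by MAF factors, was in Ms4a4a at 203 and 18 bases before the start, and 19.5% of all windows held it. The letters GAGGAAGT (PU.1, 3.20% of windows), TGANTCA (AP-1, 7.81%), CACGTG (MITF and TFE factors, 7.15%), TTGCNNAA (C/EBP, 10.8%), TGCTGACG (MAF, 0.569%) and the IRF motif (3.44%) were in none of the 5 windows. GAGGAAGT contains AGGAAG, and TGCTGACG contains TGCTGA.

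The H3K27ac libraries held 15491642.5 to 20030832 tags and the inputs 4078179 to 14415969. Values below are tags per region scaled to 10000000 per library by the authors and then by TMM factors, and are called scaled tags. In the authors' scaling, 3 tags, taken as the floor of detection, are at most 1.94 scaled tags in the H3K27ac libraries. WT replicate 1 stood apart, with 49.4% of its tags in the listed regions against 63.3% in WT replicate 2 and 64.8% and 65.7% in GrnKO. The region at the Grn start checked the labels, with 357 and 300.1 scaled tags in WT and 0 in both GrnKO libraries. A higher value in GrnKO can come from more acetylation per nucleus or from more nuclei of a type that carries it, and these bulk data cannot tell the possibilities apart.

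H3K27ac was higher in GrnKO at Ms4a7 and Ms4a4a, and no region of the other 4 genes passed the test. Of the 21 regions, 19 passed the filter on low values, and 9 of these were higher in GrnKO, 0 lower, and 10 did not pass the test (limma, Benjamini-Hochberg adjusted p under 0.05 over 80728 regions). Over all tested regions 9.72% were called, 6.8% higher and 2.92% lower. At an unadjusted limma p under 0.05 the counts for these genes were also 9 and 0, and edgeR and DESeq2 each called 8 higher and 0 lower. The median log2 change, on the log2(scaled tags + 1) scale that understates changes of low regions, was 1.17 over the 19 regions and -0.0020 over all tested regions. All 9 calls lay at Ms4a7 (6 of 7 regions) and Ms4a4a (3 of 3). None of the 2 Ms4a4c regions or of the 7 tested regions of Ms4a6b, Ms4a6c and Ms4a6d was called. Both GrnKO values were above both WT values in 10 of the 19 tested regions and below them in 2, against 27% and 25.6% of all tested regions.

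**Figure D1:**
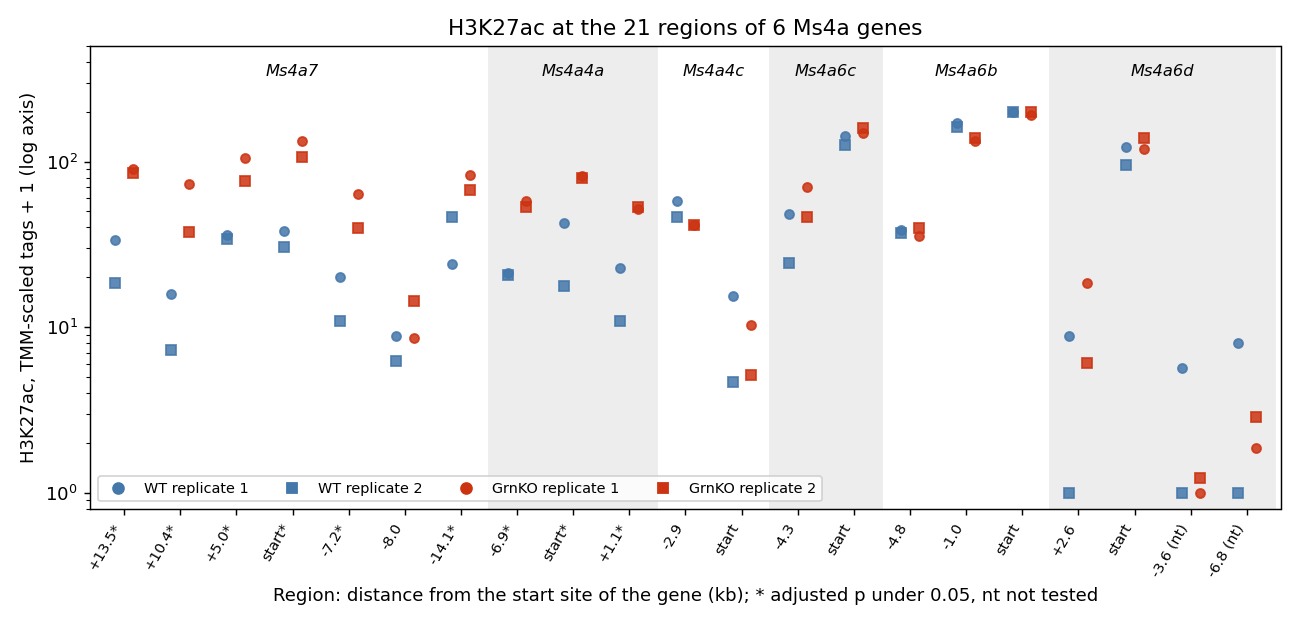
H3K27ac in scaled tags plus 1 (log axis) at the 21 regions, grouped by gene and labelled by distance from the gene's start in kb, with a point for each of the 4 H3K27ac libraries. The GrnKO points lie above the WT points at 6 of 7 Ms4a7 regions and all 3 Ms4a4a regions, while at the starts of Ms4a6b, Ms4a6c and Ms4a6d all libraries lie between 93.8 and 199.6 scaled tags.

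Ms4a7 gained H3K27ac from its start to its 3′ end. The region at its start (chr19:11335721-11336521, annotated as promoter) held 37.1 and 29.6 scaled tags in the WT pools (replicate 1, then replicate 2, here and below) and 132 and 105 in the GrnKO pools. Both GrnKO pools were thus well above both WT pools. The means were 33.4 ± 5.34 in WT and 118 ± 18.5 in GrnKO (SD, n = 2 pools each), a 3.55-fold difference. The log2 change was 1.80 with a standard error (SE) of 0.27 and a 95% interval of 1.23 to 2.37 (limma adjusted p = 0.000334). Behind these values were 47.5 and 56.5 unscaled tags in WT against 232.5 and 228.5 in GrnKO.

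Inside the gene, 3 regions rose. The region in intron 2 of 6 (chr19:11329269-11330069) held 34.8 and 33.0 scaled tags in WT and 104 and 75.2 in GrnKO, a log2 change of 1.35 (SE 0.29, limma adjusted p = 0.00526). Its inputs held 0 and 13.90 in WT and 13.18 and 38.77 in GrnKO (authors' scaling), and with the input effect subtracted its change turned to -1.27. In intron 5 of 6 (chr19:11323847-11324647) WT held 14.9 and 6.29 and GrnKO 72.7 and 36.7. This was the largest fold among the 9 called regions, 5.17, with a log2 change of 2.29 (SE 0.48, limma adjusted p = 0.00468), and its GrnKO replicates differed most, at 54.7 ± 25.5. The region in the 3′ untranslated part of exon 7 of 7 (chr19:11320839-11321639) held 32.8 and 17.5 scaled tags in WT and 89.4 and 84.2 in GrnKO, a log2 change of 1.81 (SE 0.33, limma adjusted p = 0.00177). In all 3 regions the lower GrnKO pool was above the higher WT pool.

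Upstream of Ms4a7, 2 of 3 intergenic regions rose. At 7206 bp before the start (chr19:11342952-11343752) WT had 19.2 and 9.95 scaled tags and GrnKO had 62.5 and 38.5, a log2 change of 1.75 (SE 0.43, limma adjusted p = 0.0131). The input of WT replicate 2 held 22.99 there against 10.31 in H3K27ac (authors' scaling), and with the input effect subtracted the change was 3.23 (adjusted p = 0.801). At 14118 bp before the start (chr19:11349864-11350664) WT had 23.1 and 45.6 and GrnKO had 82.6 and 66.4, a log2 change of 1.17 (SE 0.33, limma adjusted p = 0.0334). This call is the least firm of the 9. It missed the threshold with edgeR's quasi-likelihood test (adjusted p = 0.0610), with DESeq2 (adjusted p = 0.0574) and in limma without WT replicate 1 (log2 change 0.69, adjusted p = 0.0920). The region between them (chr19:11343773-11344573) was low, at 7.83 and 5.24 in WT and 7.64 and 13.4 in GrnKO, and the groups overlapped (log2 change 0.59, 95% interval -0.86 to 2.03, limma adjusted p = 0.666).

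Ms4a4a, whose human counterpart is a surface protein of macrophages, starts 39.342 kb from Ms4a7 and runs the other way. Its start region (chr19:11375052-11375852) held 41.8 and 16.8 scaled tags in WT and 80.9 and 78.7 in GrnKO. The GrnKO pools were nearly equal, and the lower of them was above the higher WT pool. The means were 29.3 ± 17.7 and 79.8 ± 1.57 (SD, n = 2 pools each), a 2.72-fold difference and a log2 change of 1.55 (SE 0.36, 95% interval 0.79 to 2.31, limma adjusted p = 0.0108). The size of this change depended on the WT pools, at 2.19 without WT replicate 1 and 0.92 without WT replicate 2.

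The other Ms4a4a regions rose to a like extent. In intron 1 of 6 (chr19:11376207-11377007) WT had 21.9 and 9.95 scaled tags and GrnKO had 50.9 and 52.4, a log2 change of 1.73 (SE 0.41, limma adjusted p = 0.0117). At 6948 bp before the start (chr19:11368140-11368940) WT had 20.3 and 19.6 and GrnKO had 56.6 and 52.4, a log2 change of 1.40 (SE 0.35, limma adjusted p = 0.0144). At the start and in intron 1, WT replicate 1, the library with fewer tags in listed regions, held more than WT replicate 2. In intron 1 its input held 36.78 scaled tags against 18.07 in its H3K27ac library (authors' scaling), and with the input effect subtracted the change was 4.35 (adjusted p = 0.801).

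The number of region calls depended on single GrnKO libraries. Without GrnKO replicate 1 limma called 1 of these regions, the Ms4a7 start (log2 change 1.64, adjusted p = 0.0450), and over all regions it called 1335 in place of 7843. Without GrnKO replicate 2 it called 4 of them, all at Ms4a7, and 1874 over all regions. Without WT replicate 1 and without WT replicate 2 it called 10 and 9. The sign of the change was positive at all 9 called regions in each of these fits.

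Ms4a4c had little H3K27ac at its start and no region that passed the test. The start region (chr19:11407232-11408032) held 14.5 and 3.67 scaled tags in WT and 9.33 and 4.15 in GrnKO, and the groups overlapped (log2 change -0.22, SE 0.80, 95% interval -1.90 to 1.46, limma adjusted p = 0.907). This region rests on few tags, and its sign turned without WT replicate 1 (0.64) and without GrnKO replicate 2 (0.28). The other region (chr19:11404337-11405137), assigned as 2924 bp before that start, contains the first base of the longer RefSeq gene model at 11404717. It held more H3K27ac, with 57.1 and 45.3 in WT and 40.2 and 40.4 in GrnKO. Both GrnKO pools were below both WT pools, by a log2 change of -0.33 (SE 0.30, 95% interval -0.97 to 0.31) that did not pass the test (limma adjusted p = 0.565).

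Ms4a6b, known from T cells and myeloid cells, had the highest H3K27ac of the 6 genes at its start. That region (chr19:11518132-11518932) held 198 and 199.0 scaled tags in WT and 189.8 and 199.6 in GrnKO, and the groups overlapped. The log2 change was -0.03 with a 95% interval of -0.38 to 0.32 (limma adjusted p = 0.941), so the interval excludes a change of the size seen at the Ms4a7 start. The next region upstream (chr19:11517133-11517933) held 171 and 161 in WT and 132 and 139 in GrnKO, with both GrnKO pools lower (log2 change -0.29, SE 0.18, limma adjusted p = 0.367). At 4847 bp before the start all 4 libraries lay between 34.5 and 38.5.

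Ms4a6c and Ms4a6d, both expressed in monocytes and macrophages, also had strong start regions. At the Ms4a6c start (chr19:11469007-11469807) WT had 143 and 125 scaled tags and GrnKO had 148 and 159. Both GrnKO pools were above both WT pools by a small margin (log2 change 0.20, SE 0.19, 95% interval -0.20 to 0.60, limma adjusted p = 0.581). At the Ms4a6d start (chr19:11604396-11605196) WT had 122 and 93.8 and GrnKO had 119 and 138, and the groups overlapped (log2 change 0.26, SE 0.21, 95% interval -0.19 to 0.71, limma adjusted p = 0.513).

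The other regions of these genes were low or unequal between WT pools. At 4297 bp before the Ms4a6c start (chr19:11464671-11465471) WT had 47.3 and 23.3 and GrnKO had 69.0 and 45.2 scaled tags, and the groups overlapped (log2 change 0.73, limma adjusted p = 0.228). The input of WT replicate 1 held 72 tags there, 176.55 in the authors' scaling and the highest of 84 input values at these 21 regions, of which 54 were 0. With the input effect subtracted the change was 2.97 (limma adjusted p = 0.809). The call turned on the WT pools, with a log2 change of 1.23 (limma adjusted p = 0.00830) without WT replicate 1 and 0.24 (adjusted p = 0.649) without WT replicate 2. The Ms4a6d region in intron 2 of 6 (chr19:11601802-11602602) held 7.83 and 0 in WT and 17.5 and 5.07 in GrnKO, and the groups overlapped (log2 change 1.84, limma adjusted p = 0.308). Its change was 3.41 (adjusted p = 0.0160) without WT replicate 1, which leaves the WT library at 0, and 0.27 (adjusted p = 0.836) without WT replicate 2. The input of WT replicate 2 held 19.25 there in the authors' scaling, and with the input effect subtracted the change was 3.79 (adjusted p = 0.801). The other 2 Ms4a6d regions, at most 7.04 scaled tags in any library, were not tested.

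In order of the mean at the start region, WT went from Ms4a6b (199 scaled tags) over Ms4a6c (134), Ms4a6d (108), Ms4a7 (33.4) and Ms4a4a (29.3) to Ms4a4c (9.07). In GrnKO the order of these regions was the same, with means of 195, 153, 128, 118, 79.8 and 6.74. All regions are of equal width, so these levels compare per length. In WT only Ms4a7 and Ms4a4a overlapped among neighbours in this order. In GrnKO only Ms4a6d (119 and 138) and Ms4a7 (132 and 105) overlapped, whereas in WT the higher Ms4a7 pool (37.1) was far below the lower Ms4a6d pool (93.8). The ratio of the Ms4a7 to the Ms4a6d start region within a library was 0.304 and 0.316 in WT and 1.11 and 0.764 in GrnKO.

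Summed over all regions of a gene, Ms4a7 and Ms4a4a again rose and the others did not pass the test. The fit over 15380 genes called 14.5% of them, 8.6% higher and 5.88% lower. It called 2 of the 6 genes higher and 0 lower. The median log2 change was 0.31 over the 6 genes and -0.05 over all genes. The Ms4a7 sum was 169.7 and 147 scaled tags in WT and 549.9 and 419.9 in GrnKO, with both GrnKO pools far above both WT pools. The means were 158 ± 15.9 and 485 ± 91.9 (SD, n = 2 pools each), a 3.06-fold difference with a log2 change of 1.60 (SE 0.18, 95% interval 1.21 to 1.98, limma adjusted p = 7.04e-05). Its log2 change stood at percentile 97.4 of all tested genes.

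The Ms4a4a sum was 84.1 and 46.4 scaled tags in WT and 188 and 183 in GrnKO. The GrnKO pools lay close together and above both WT pools. The means were 65.2 ± 26.7 and 186 ± 3.52, a 2.85-fold difference with a log2 change of 1.56 (SE 0.28, 95% interval 0.96 to 2.16, limma adjusted p = 0.00204). Both sums stayed past the threshold when any single H3K27ac library was left out, with log2 changes of 1.40 to 1.79 for Ms4a7 and 1.14 to 1.98 for Ms4a4a. Their regions within 1000 bp of the start alone gave 1.80 and 1.55, and the regions beyond it alone gave 1.53 and 1.56. Neither call held when the input effect was subtracted (log2 changes 2.30 and 3.55, limma adjusted p = 0.912 for both), a contrast with no call at any region.

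The sums of the other genes changed less than the spread allows to call. Ms4a4c had 71.6 and 49.0 in WT and 49.5 and 44.5 in GrnKO (log2 change -0.33, 95% interval -1.02 to 0.36, limma adjusted p = 0.573). Ms4a6b had 407 and 396 in WT and 357 and 377 in GrnKO, lower in both GrnKO pools (log2 change -0.13, 95% interval -0.44 to 0.18, limma adjusted p = 0.622). With the authors' scaling alone, which moved the median log2 change of all genes from -0.05 to 0.18, the Ms4a6b change was 0.10. Ms4a6c had 190.1 and 148 in WT and 217 and 204 in GrnKO, higher in both GrnKO pools (log2 change 0.32, 95% interval -0.09 to 0.74, limma adjusted p = 0.319). Ms4a6d had 142 and 93.8 in WT and 137 and 145 in GrnKO, and the groups overlapped (log2 change 0.29, 95% interval -0.23 to 0.81, limma adjusted p = 0.494). Groups that do not overlap were common, since both GrnKO values were above both WT values in 25.4% of all genes and below in 29.4%.

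**Figure D2:**
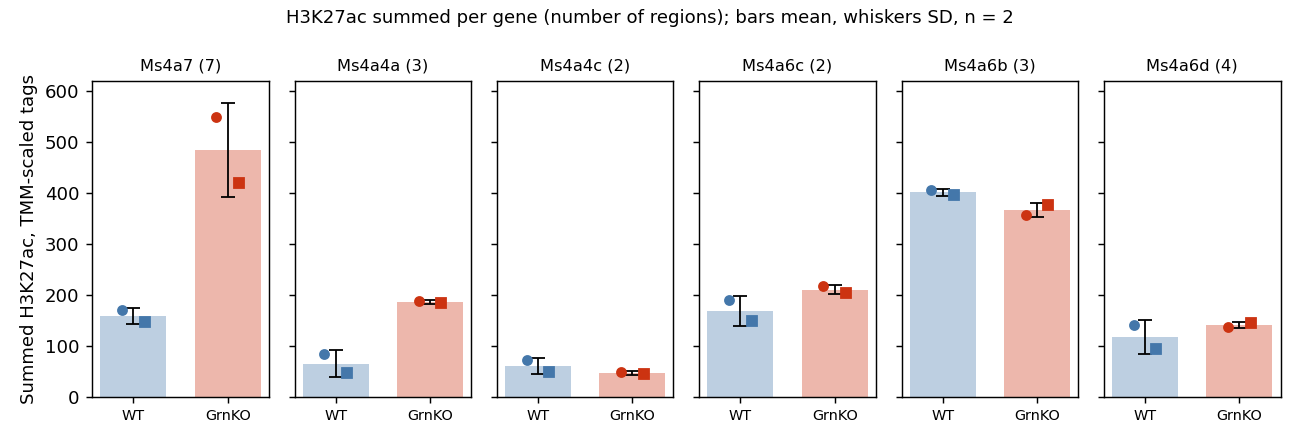
Summed H3K27ac per gene in scaled tags (number of regions in parentheses), with a point per library, bars for the mean and whiskers for the SD (n = 2 pools). Ms4a7 rises from 158 to 485 and Ms4a4a from 65.2 to 186, while Ms4a6b, the highest gene in WT, goes from 401 to 367.

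The shares of the genes within a library, in which depth and scaling cancel, differed between genotypes. Ms4a7 and Ms4a4a together held 23.9% and 21.98% of the sum over the 6 genes in WT and 49.3% and 43.9% in GrnKO. The share of Ms4a6b, Ms4a6c and Ms4a6d was 69.4% and 72.5% in WT and 47.4% and 52.8% in GrnKO, and that of Ms4a4c was 6.73% and 5.56% against 3.30% and 3.24%. The ratio of the Ms4a7 sum to the Ms4a6b sum was 0.417 and 0.372 in WT and 1.54 and 1.11 in GrnKO, and for Ms4a4a over Ms4a6b it was 0.207 and 0.117 against 0.528 and 0.487. None of these shares and ratios overlapped between genotypes, but an exact permutation test of 2 pools against 2 cannot go below p = 0.333. The sum over the 6 genes itself was 1064 and 880.5 scaled tags in WT and 1499 and 1374 in GrnKO, a 1.48-fold difference of the means.

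**Figure D3:**
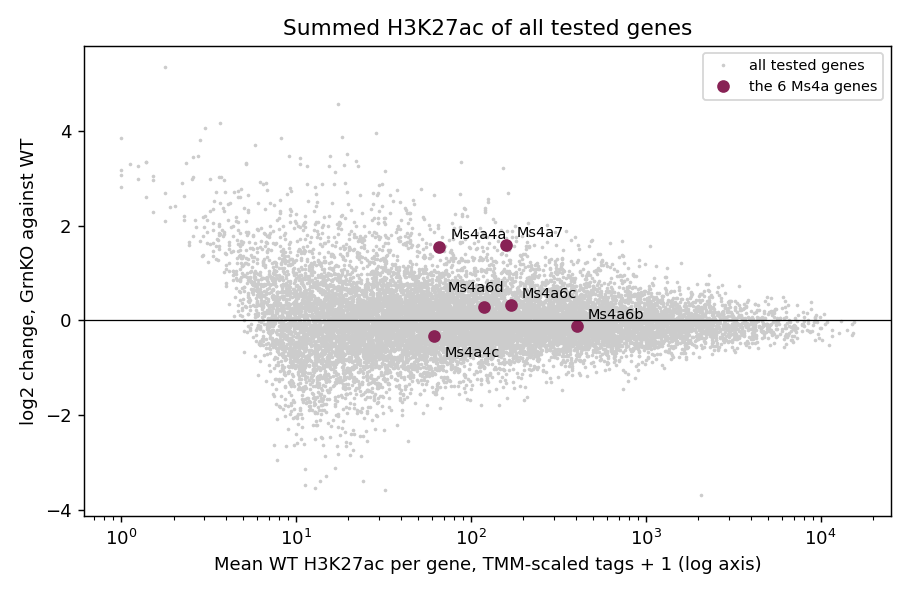
Log2 change of summed H3K27ac, GrnKO against WT, plotted against the mean WT level (scaled tags plus 1, log axis) for the 15380 tested genes (grey) and the 6 Ms4a genes (dark red). Ms4a7 (1.60) and Ms4a4a (1.56) lie above most genes of like WT level, and the other 4 genes lie within 0.33 of 0.

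Along the chromosome the higher values formed a stretch that ran past these genes on the side of Ms4a7 and ended between Ms4a4a and Ms4a4c. Its bounds were chosen after the values were seen. From the first Ms4a1 region to the last Ms4a4a region (chr19:11231090-11377007, 145.917 kb) all 17 regions were tested and 14 were higher in GrnKO, with a median log2 change of 1.40. From the first Ms4a4c region to the last Ms4a6d region (chr19:11404337-11612038, 207.701 kb) 1 of 14 tested regions was higher, with a median of 0.20. Over all tested regions 6.8% were higher, a share close to that of the second stretch. The region called there (chr19:11430935-11431735) was assigned to Ms4a4b, with 31.7 and 23.8 scaled tags in WT and 70.7 and 48.9 in GrnKO (log2 change 1.07, limma adjusted p = 0.0499). It is the only region of Ms4a4b, and the same values did not pass in the fit over genes (limma adjusted p = 0.0664).

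Of 8 other Ms4a genes in the table, 6 were tested and 2 were higher, Ms4a1 and Ms4a5, where 8.6% of all genes were. Ms4a1, which encodes the B cell surface protein CD20, had a sum of 219 and 197 scaled tags in WT and 609 and 463 in GrnKO (log2 change 1.35, SE 0.17, limma adjusted p = 0.000174). The gain lay in 4 of its 6 regions. The strongest was in intron 1 of 6 (chr19:11261283-11262083), at 23.5 and 25.9 in WT and 136 and 83.5 in GrnKO. Another (chr19:11244075-11244875) lay 21676 bp from the Ms4a1 start, in an intron of the transcript NR_045317. Ms4a5 had a single region, at 215 and 125 in WT and 311 and 284 in GrnKO (log2 change 0.85, SE 0.23, limma adjusted p = 0.0240). That region lay 9280 bp before the Ms4a5 start, also in an intron of NR_045317. Both were assigned as nearest gene only. Ms4a4d, within the Ms4a6 stretch, held 149 and 89.1 in WT and 135 and 110 in GrnKO (log2 change 0.09, limma adjusted p = 0.880). Without WT replicate 2, GrnKO replicate 1 or GrnKO replicate 2, 1 of the other Ms4a genes was called in place of 2.

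Transcription factor genes of B cells, the cells in which Ms4a1 is best known, were close to 0. Ebf1 had a sum of 11.3 and 4.20 scaled tags in WT and 2.26 and 1.39 in GrnKO, lower in both GrnKO pools. Pax5 was at 0 and 0.521 in WT and at 0.564 and 0 in GrnKO. Neither gene had enough tags to be tested, and the part of B cells in the Ms4a1 result was not tested.

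Outside the Ms4a family, 77 further regions lay between the outermost Ms4a regions or within 200 kb of them. Of these 43 were tested, 1 was higher and 0 lower, against 6.8% and 2.92% of all tested regions. The region called lay at Stx3 (chr19:11818491-11819291), a gene of vesicle fusion. It held 15.6 and 10.997 scaled tags in WT and 42.7 and 38.1 in GrnKO (log2 change 1.55, SE 0.41, limma adjusted p = 0.0232). Without a GrnKO replicate 0 of these regions were called, and without a WT replicate 4 were called.

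**Figure D4:**
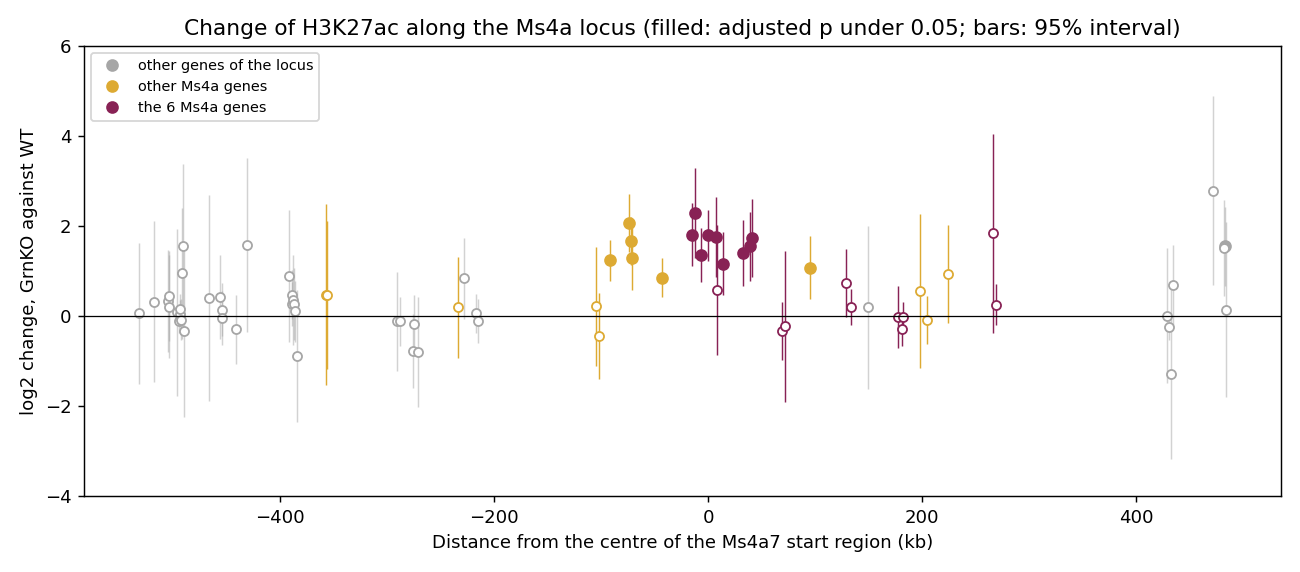
Log2 change of H3K27ac, GrnKO against WT, with its 95% interval (bars) for every tested region of the locus, plotted by distance in kb from the centre of the Ms4a7 start region (filled points have a limma adjusted p under 0.05). Filled points gather over Ms4a1, Ms4a5, Ms4a7 and Ms4a4a, and the Ms4a4c and Ms4a6 regions have open points between -0.33 and 0.73, apart from a Ms4a6d region at 1.84 with a wide interval.

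Most microglial markers were lower in GrnKO, while no other cell type had more than 1 marker called higher or more than 1 called lower. Of 8 microglial markers 6 were lower in GrnKO, 0 higher and 2 did not pass the test, where 5.88% of all genes were lower. Their summed H3K27ac was 46782 to 51106 scaled tags in WT and 37828 to 40071 in GrnKO. Of 10 markers of border macrophages, a cell type also marked by Ms4a7, 1 was higher (Siglec1, log2 change 0.55, limma adjusted p = 0.0105), a share close to the 8.6% of all genes called higher, and 9 did not pass. Their sum was 4508 to 4758 in WT and 5145 to 5273 in GrnKO, and none was at 0. Siglec1 made up most of that difference, with means of 920 in WT and 1336 in GrnKO, and the other 9 genes had GrnKO-to-WT ratios from 0.546 (Lyve1, whose groups overlapped) to 1.53 (F13a1). F13a1 had 176 and 159.8 in WT and 290.2 and 223 in GrnKO, and Folr2 (ratio 1.25) was also higher in both GrnKO pools, but neither passed the test (limma adjusted p = 0.0540 and 0.295). Mrc1, a defining gene of border macrophages, had 433 and 457 in WT and 483 and 470.4 in GrnKO (log2 change 0.10, limma adjusted p = 0.695). The median log2 change was 0.04 over the border list and -0.36 over the microglial list. Of 6 monocyte markers 4 were in the table, 3 were tested and 1 was lower (Ccr2, log2 change -0.53, limma adjusted p = 0.0431), with sums of 639 to 691 in WT and 419 to 507 in GrnKO. Of 4 oligodendrocyte genes, a type sorted against, 3 were tested. Mbp was higher (log2 change 0.47, limma adjusted p = 0.00266) and Mog lower (-1.30, adjusted p = 0.00153), and the sum was 1984 to 1996 in WT and 2502 to 2644 in GrnKO, mostly from Mbp. Of 4 neuronal genes 1 was lower (Syt1, log2 change -0.99, limma adjusted p = 0.0213), with sums of 251 to 281 in WT and 157 to 186 in GrnKO and a median log2 change of -0.89. Of 3 tested neutrophil genes S100a8 was higher (0 and 5.24 in WT, 20.4 and 18.7 in GrnKO, limma adjusted p = 0.0484) and Mmp9 lower (adjusted p = 0.0447), with sums of 44.2 to 45.6 in WT and 33.5 to 37.9 in GrnKO. None of the 3 tested astrocyte genes or the 2 tested T cell genes passed. The part of these cell types in the Ms4a7 and Ms4a4a result was not tested.

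Genes of the TREM2 pathway, to which the human MS4A locus has been linked, mostly did not pass the test. Of 10 such genes 1 was higher and 1 lower, close to the 8.6% and 5.88% of all genes. Their median log2 change was 0.0041. Apoe, the lipid carrier whose protein binds TREM2, had a sum of 610 and 400.5 scaled tags in WT and 944 and 819 in GrnKO (log2 change 0.83, SE 0.17, limma adjusted p = 0.0054). Inpp5d, a phosphatase that restrains signalling of such receptors, was lower (log2 change -0.21, SE 0.06, limma adjusted p = 0.0221). Trem2 itself held 1234 and 1622 in WT and 1625 and 1762 in GrnKO and did not pass (log2 change 0.26, limma adjusted p = 0.195), and its adaptor Tyrobp had a log2 change of 0.13 (limma adjusted p = 0.407). Without GrnKO replicate 1, 0 of these genes were called higher, and without WT replicate 2, 3 were. No gene of the list was called lower with the authors' scaling alone, without the filter, with TMM on gene sums, or without either GrnKO replicate, and 2 were without either WT replicate.

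The 5 genes outside the family with the profile nearest to the sum over the 6 genes, by the Euclidean distance of centred log2 values over the 4 H3K27ac libraries, were Arsg (0.0311), Cnksr3 (0.0357), Gm5334 (0.0383), Csf1 (0.0403) and Gm6498 (0.0442). The sum over the 6 genes had centred values of -0.15 and -0.42 in the WT pools and 0.35 and 0.22 in the GrnKO pools. Csf1, the ligand of the CSF1 receptor on microglia, had -0.13 and -0.41 in the WT pools and 0.32 and 0.22 in the GrnKO pools. The distance rests on 4 libraries and describes these libraries only.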

How the data were processed

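H3K27ac and input values of 8 libraries were read from the authors' table of 129304 regions. The deposited unit is signal: tags in 800 bp, scaled by the authors to 10000000 tags per library, per the file headers. Its regions come from merged ATAC-seq peak calls, as the header names them. Bowtie2, HOMER, DESeq2 and mm10 are named in the submitters' processing notes without roles, and the handling of duplicate and multiply matching reads is not given in the sources used here. Multiplied by the library totals, 100% of values gave whole read ends (tolerance 0.05, 2 ends per tag). Groups came from the sample titles.

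Scaling used TMM factors (WT 0.825 and 1.04, GrnKO 1.08 and 1.08). Regions were kept by edgeR's filterByExpr (4.0.16, minimum 10 tags, by genotype), and limma 3.58.1 in R 4.3.3 (lmFit, eBayes with trend) was fitted to log2(scaled tags + 1) of the 4 H3K27ac libraries, with genotype as the only term and Benjamini-Hochberg adjustment at 0.05. Gene sums used the same region factors. Alternatives were edgeR and DESeq2 (1.42.0) on the recovered read ends, other scalings, pseudocounts and filters, a replicate block, single libraries left out (a lone library is assumed to vary like the others), and subtraction of the input effect. The fits were tested on simulated data.

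Every region of a gene past the threshold, nearest its start, or highest in WT is given in full; of other Ms4a genes, those called and the 3 highest; of neighbours, those called. The stretch bounds, Ms4a4b, the gene groups of the shares and ratios, and the markers singled out of their lists were picked once their values were known. The members and lists were chosen with earlier results of these data known. Tags carry no molecular identifiers, and the floors of detection cover counting error only. The intervals come from the limma fits and, like the p-values, measure the spread between pools. Replicate numbers name different mice, and the deviations of same-numbered libraries had a correlation of 0.0344 over 80728 regions. One B cell marker is not reported here.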

Additional observations from a re-analysis of the deposited data

Results flagged for a closer look

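The input libraries were not used in the main comparison, and at 6 of the 21 regions an input exceeded the H3K27ac library of the same pool, in the authors' scaling. At the Ms4a7 region 7206 bp before the start, the input of WT replicate 2 held 22.99 scaled tags against 10.31 in H3K27ac. At the low Ms4a7 region 8027 bp before the start, the inputs of WT replicates 1 and 2 held 31.88 and 18.18 against 6.46 and 5.43. At the Ms4a4a region in intron 1, the input of WT replicate 1 held 36.78 against 18.07. The Ms4a6c region 4297 bp before the start had 176.55 in the input of WT replicate 1 against 39.05.

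At Ms4a6d, the intron 2 region had 19.25 in the input of WT replicate 2 against 0. The outermost region (chr19:11611238-11612038) had 20.32 against 0 in WT replicate 2, 2.77 against 0.92 in GrnKO replicate 1 and 53.06 against 2 in GrnKO replicate 2. Each of these input values rests on 4 to 72 tags. With the input effect subtracted, the log2 changes were 3.23 and 5.02 at the 2 Ms4a7 regions, 4.35 at Ms4a4a, 2.97 at Ms4a6c and 3.79 at the Ms4a6d intron region, and none passed the test (limma adjusted p = 0.149 to 0.809). The outermost Ms4a6d region was not tested.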

How the results depend on the processing

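Of 465 alternatives, 392 kept direction and side of the threshold, or stayed within the allowed spread. Some of them could not move a log2 change. The Ms4a4a sum stayed at 1.56 with non-overlapping regions only, as no region of these genes overlapped another, and with the replicate block. The summed gains of Ms4a7 and Ms4a4a kept direction and side of the threshold in 16 of 17 alternatives each. The exception was the H3K27ac effect minus the input effect, at 2.30 for Ms4a7 and 3.55 for Ms4a4a (limma adjusted p = 0.912 for both), a contrast that called 0 of all regions. It called 0 of the Ms4a regions, 3 of which had an unadjusted p under 0.05, all higher. Under it Ms4a7 at 5026 bp inside the gene turned to -1.27, the Ms4a6c start to -0.61, the Ms4a6d start to -0.76 and the Ms4a6d sum to -1.35, and Ms4a6b turned to 0.66 at 1026 bp and 2.32 at 4847 bp before its start. It called 0 neighbouring regions, 0 other Ms4a genes and 0 TREM2-related genes higher or lower.

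The authors' scaling alone called 6583 regions higher and 333 lower, against 5488 and 2355, and moved the median log2 change of all regions to 0.22. It turned Ms4a6b to 0.10 (sum), 0.20 (start) and 0.21 (4847 bp before), gave 0.80 as the log2 ratio over the 6 genes (0.56 with TMM), and called 2 neighbouring regions higher and 0 TREM2-related genes lower. Without the filter, Ms4a6b turned to 0.012 and 0.027 at those regions, and 0 TREM2-related genes were lower, as with TMM on gene sums, an alternative chosen after seeing the data. DESeq2 called 2 of them lower.

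Leaving out single libraries gave 1 to 10 higher Ms4a regions (9 in all libraries), 0 to 4 higher neighbours, 1 to 3 higher other Ms4a genes, and 0 to 3 higher and 0 to 2 lower TREM2-related genes. The Ms4a6d sum spanned -0.0048 (without WT replicate 2) to 0.58. The Ms4a4c sum spanned -0.60 to -0.060 and the Ms4a6c sum 0.15 to 0.50. The Ms4a4c start spanned -1.08 to 0.64, turning without WT replicate 1 and without GrnKO replicate 2 (0.28). Ms4a6b spanned -0.066 to 0.0065 at its start, turning without GrnKO replicate 1, and -0.092 to 0.063 at 4847 bp before it, turning without WT replicate 1 (0.013) and without GrnKO replicate 1. Counts without libraries are from fits with fewer samples.

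With the replicate block 9 Ms4a regions were higher, as without it, while 11391 regions were called in all against 7843, 2 neighbours were higher and 2 TREM2-related genes lower. Depth limits the low regions: member regions held 0 to 432.5 tags.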
